A study of Mus musculus with 2 samples.

Results

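Aminoacyl-tRNA synthetases were examined in 2 cultures of mouse bone marrow cells, 1 given a control siRNA and 1 given silncMDSC. The set held 36 genes, chosen by name: 20 enzymes of the cytosol and 16 of the mitochondrion, the latter being the symbols that end in 2. Each gene was read from the brightest probe set that the platform annotation gives to that gene alone. This was possible for 35 of the 36, out of 18193 genes on the array. No such probe set was listed for Dars, the cytosolic aspartate enzyme, so Dars was not analysed here. Both cultures came from C57BL/6 bone marrow, were transfected with siRNA and grown for 4 days with GM-CSF and IL6, which yields a mixture of myeloid-derived suppressor cells (MDSCs). silncMDSC is the siRNA against lncMDSC, the long non-coding RNA that the study also names lnc-C/EBPβ. Each culture gave 1 Affymetrix array, so no difference has a replicate check and no test was run. The labels do not say how many mice supplied the marrow.

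Each aminoacyl-tRNA synthetase joins 1 kind of amino acid to its matching tRNAs, which carry it to the ribosome. Cytosol and mitochondria make protein separately, and most amino acids have a different nuclear gene for each compartment. The cytosolic enzymes partly assemble into the multisynthetase complex. The transcription factor ATF4 switches on many cytosolic synthetase genes when amino acids run short.

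Values are probe set intensities, and a difference is log2(intensity + 1) of silncMDSC minus that of control, so a negative difference means a lower level with silncMDSC. Genes were compared where the higher of both intensities reached 78.4, the median of all probe set values, called the floor below. The floor left 11920 genes and 34 members, each of which passed it on both arrays. The remaining member, Mars2, was below it on both. Over all 11920 genes the differences had a median of -0.002 and a robust SD of 0.18. Probe sets of 1 gene are the only repeated readings, and their differences varied with a median SD of 0.08 over the 4845 genes that had more than 1 above the floor.

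The labelled cell type was checked first. The intensity of Itgam, which encodes CD11b, was 2144 with control siRNA against 2040 with silncMDSC, and S100a8 and S100a9, abundant proteins of myeloid cells, were near the top of the scale on both arrays. The defining genes Ly6g, Ly6c1 and Ly6c2 had no probe set of their own and were not read. Markers of other cells differed between the cultures. Of 8 macrophage markers, 4 (Mrc1, Msr1, Maf and Apoe) were past 1.5-fold lower with silncMDSC, against 1.42% of all genes. Adgre1, which encodes F4/80, was level (3070 and 3068), as was C1qa (-0.03). The summed intensity of the 8 was 12149 in control and 9454 in silncMDSC. All 8 dendritic cell markers were higher, with sums of 16433 and 22325, and all 4 eosinophil markers were higher, with sums of 3084 and 4313. Over all genes 50.7% were below 0. The 3 monocyte markers were higher as well (4999.95 and 5503). The 4 mast cell and basophil markers, which summed to 5731 and 6221, did not share a direction. Cpa3 was higher (0.48), Fcer1a was lower (-0.44), and Mcpt8 (0.02) and Kit (-0.03) were level. The T cell markers Cd3d, Cd3e and Cd3g summed to only 256 and 288 and the B cell markers Ms4a1 and Cd79a to 389 and 351. Neither erythroid marker read was above the floor, nor were 2 of the 3 stromal ones, Col1a1 and Pdgfrb. The part of cell composition in the values below was not tested, and in such bulk samples fewer cells of a type and less RNA per cell cannot be told apart.

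The sequence before the start of transcription is shown for the 2 members farthest below control with a promoter entry, Yars2 and Farsb, and for the members that hold an ATF4-type motif, since ATF4 is the known inducer of the family. Each run is the 250 bases before the RefSeq start, 5′ to 3′ on the strand of the gene, in assembly GRCm38.p6. Capitals mark TGATGNAA (ATF4 type) and CACGTG (E-box, the motif of MYC and its relatives), both searched on either strand, with no overlap between them. The positions are chr16:16302715-16302964 (+) for Yars2, chr1:78488898-78489147 (-) for Farsb, chr15:11399659-11399908 (-) for Tars, chr6:55037751-55038000 (+) for Gars and chr8:111033592-111033841 (+) for Aars.
Yars2: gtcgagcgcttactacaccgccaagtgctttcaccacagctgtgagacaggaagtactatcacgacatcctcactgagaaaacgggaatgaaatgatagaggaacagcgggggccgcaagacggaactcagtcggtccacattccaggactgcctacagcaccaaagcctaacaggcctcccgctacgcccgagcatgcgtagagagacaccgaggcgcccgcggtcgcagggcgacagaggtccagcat
Farsb: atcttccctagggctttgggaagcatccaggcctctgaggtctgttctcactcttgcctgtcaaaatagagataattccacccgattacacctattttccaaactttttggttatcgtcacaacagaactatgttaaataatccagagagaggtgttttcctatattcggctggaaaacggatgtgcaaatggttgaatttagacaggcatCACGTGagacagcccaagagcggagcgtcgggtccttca
Tars: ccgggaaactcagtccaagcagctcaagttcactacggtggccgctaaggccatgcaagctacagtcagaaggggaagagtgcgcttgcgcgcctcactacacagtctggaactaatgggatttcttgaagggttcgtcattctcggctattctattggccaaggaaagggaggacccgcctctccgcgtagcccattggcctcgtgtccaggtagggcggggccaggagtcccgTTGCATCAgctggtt
Gars: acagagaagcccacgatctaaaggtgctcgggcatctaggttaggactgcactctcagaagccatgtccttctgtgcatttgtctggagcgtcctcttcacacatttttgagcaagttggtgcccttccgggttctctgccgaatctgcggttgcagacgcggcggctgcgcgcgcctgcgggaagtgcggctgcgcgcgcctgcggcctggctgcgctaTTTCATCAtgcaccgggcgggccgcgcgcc
Aars: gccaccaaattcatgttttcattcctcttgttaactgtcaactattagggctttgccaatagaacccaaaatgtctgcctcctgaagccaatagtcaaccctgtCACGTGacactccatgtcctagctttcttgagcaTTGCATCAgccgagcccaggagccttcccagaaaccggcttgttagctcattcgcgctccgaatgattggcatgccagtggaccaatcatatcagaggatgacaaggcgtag

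The ATF4-type motif was found in 3 of the 27 members with an entry, against 3.91% of the 27025 genes of the table. The 3 are the cytosolic genes Aars, where it lies 112 bases before the start, Gars, 30 bases before it, and Tars, 15 bases before it. Their differences were 0.12, 0.02 and -0.27, so the promoters with this motif did not share a direction. The E-box was found for Aars, Farsb and Iars, against 6.86% of all genes, with differences of 0.12, -0.37 and -0.17. None of the 14 mitochondrial members with an entry, Yars2 included, held either motif in this window. A match describes these letters only and is not a binding site.

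No synthetase above the floor was 1.5-fold apart on its brightest probe set. The count past 1.5-fold was thus 0 of 34 members on either side, and it became 1, Yars2, lower, with a loess trend removed, with quantile normalization or with the mean of all probe sets. The background over all genes was 0.948% higher and 1.42% lower. With so few genes past that fold in the whole table, the count of 0 says little about the members. At a smaller fold of 1.2, chosen after the values were seen, 7 members (20.6%) were lower and 0 higher, against 10.6% and 6.96% of all genes. The 7 were Yars2, Farsb, Nars2, Rars2, Hars, Tars and Rars. In all, 21 of the 34 members (61.8%) were below 0, against 50.7% of all genes, with a median difference of -0.03 and a range from -0.58 to 0.26. Within the robust SD of all genes lay 18 members, against 66.3% of all genes.

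**Figure D1:**
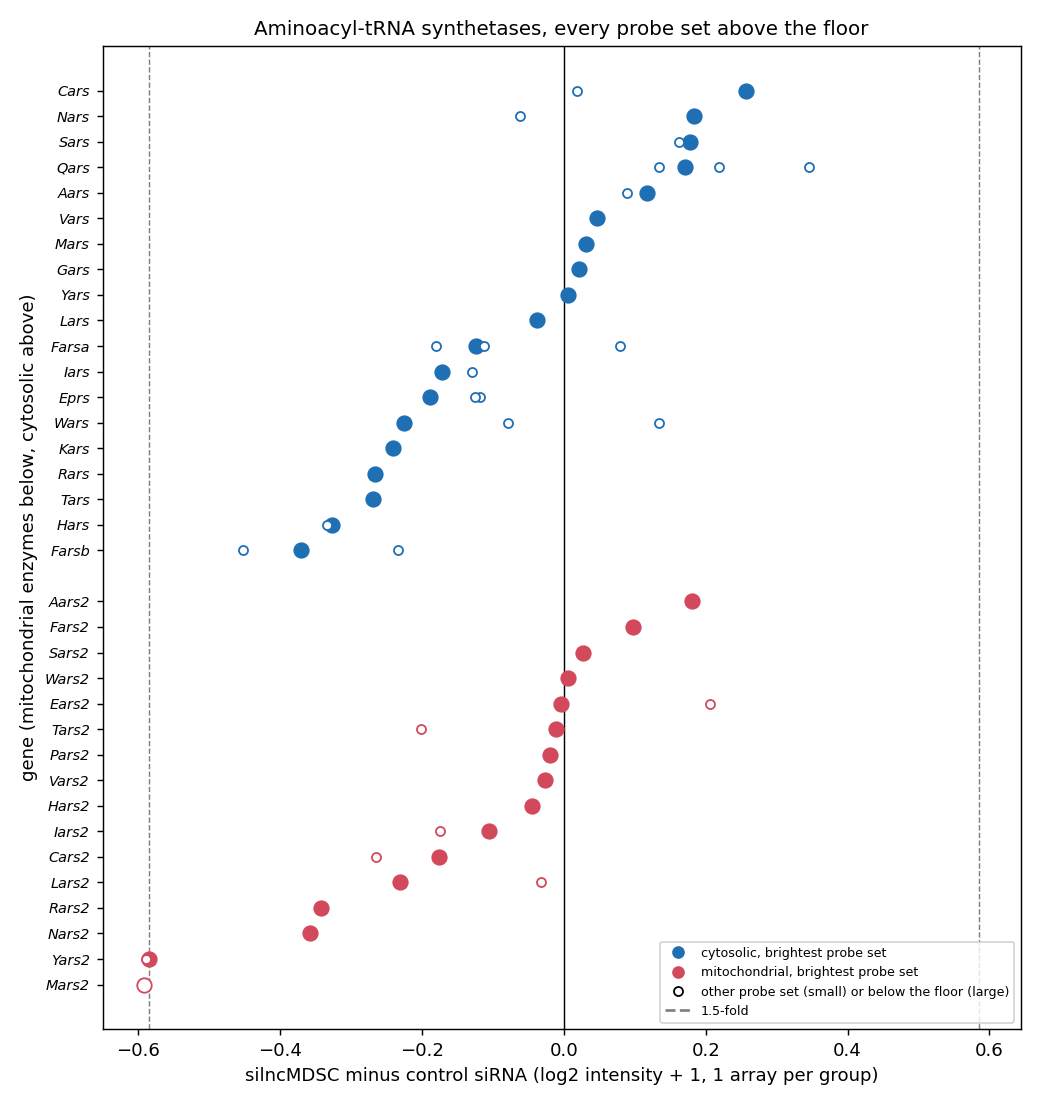
Each point is 1 probe set of a synthetase gene (y axis) with its difference between the arrays (x axis, log2, silncMDSC minus control), with the brightest probe set of a gene as a large point, other probe sets above the floor as small open points and dashed lines at 1.5-fold. Yars2 lies at the lower dashed line on both of its probe sets and Mars2, an open large point, is below the floor. The cytosolic enzymes run from -0.37 for Farsb to 0.26 for Cars.

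Yars2, which charges tyrosine onto mitochondrial tRNA, was the member farthest from control. Its brighter probe set read 137.6 in control against 91.4 in silncMDSC, a difference of -0.58 that was just short of 1.5-fold. Its dimmer probe set had 100.6 and 66.6, a difference of -0.59, past 1.5-fold. The readings from both probe sets thus nearly coincided, with an SD of 0.003, although the dimmer one was below the floor in silncMDSC. Its cytosolic counterpart Yars, which had 355 and 356, was level (0.01).

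Nars2 and Rars2 followed among the mitochondrial enzymes. Nars2, the asparagine enzyme, read 159.8 in control against 124.5 in silncMDSC, 1.28-fold lower (-0.36). Rars2, the arginine enzyme, had 278.9 and 219.8, 1.27-fold lower (-0.34). Each rested on 1 probe set above the floor. Mars2, the methionine enzyme, gave 48.8 and 32.1 on its brighter probe set (-0.59), but both values are below the floor and its size is not reliable. Lars2, for leucine, had 311 and 265 (-0.23), with -0.03 on its other probe set. Cars2, for cysteine, had 128.8 and 113.9 (-0.18), and its other probe set was also lower (-0.27). Iars2, for isoleucine, was lower on both of its probe sets (-0.11 and -0.18).

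The other mitochondrial enzymes were close to control. Hars2 differed by -0.04, Vars2 by -0.03, Pars2 by -0.02, Tars2 by -0.01, Ears2 by -0.004, Wars2 by 0.01 and Sars2 by 0.03. Values this small turned sign under another way of processing for Ears2, Tars2, Wars2 and, among cytosolic members, Lars. Probe sets disagreed for Ears2, whose other reading was 0.21, and for Tars2, whose other reading was -0.20. Aars2, the alanine enzyme, was the mitochondrial member farthest above control, with 199.2 and 225.8 (0.18), followed by Fars2 for phenylalanine with 177.8 and 190.2 (0.10). The 15 mitochondrial members above the floor thus had 11 below 0 and 4 above it, and a median of -0.03. Of the 15, 3 (20%) were past 1.2-fold, all of them lower. Among all genes, 50.7% were below 0 and 10.6% past 1.2-fold lower.

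Among the cytosolic enzymes, Farsb and Hars were lowest. Farsb, the beta subunit of the phenylalanine enzyme, read 388 in control against 299 in silncMDSC, 1.29-fold lower (-0.37), with -0.45 and -0.23 on its other probe sets. Farsa, the catalytic alpha subunit of the same enzyme, had 433 and 397 (-0.12), and its other probe sets ran from -0.18 to 0.08. Hars, the histidine enzyme, had 831 and 662 (-0.33), and its second probe set gave the same size (-0.33). For these members every probe set above the floor was lower except 1 of Farsa.

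Of the complex, 7 of its 8 enzymes were read. Rars, the arginine enzyme, had 512 and 426 (-0.27), and Kars, the lysine enzyme, had 560 and 474 (-0.24). Eprs, which charges both glutamate and proline, had 951 and 835 (-0.19), with -0.13 and -0.12 on its other probe sets. Iars, for isoleucine, had 1121 and 995 (-0.17, and -0.13 on the other probe set). Lars, for leucine, was level (-0.04), as was Mars, for methionine (0.03), while Qars, for glutamine, went the other way with 971 and 1093 (0.17), and all 3 of its other probe sets were higher, by 0.13 to 0.35. The complex enzymes thus had 5 of 7 below 0 and a median of -0.17, and 1 of them, Rars, was past 1.2-fold. The 12 cytosolic enzymes outside the complex had 5 below 0 and a median of 0.01. Over all genes 50.7% were below 0 and 10.6% past 1.2-fold lower.

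Among the enzymes outside the complex, Tars, for threonine, had 482 and 399.7 (-0.27). Cars, for cysteine, was the member farthest above control, with 193.9 and 231.9 (0.26), although its second probe set gave 0.02. Nars, for asparagine, had 1602 and 1820 (0.18), but its second probe set gave -0.06. Sars, for serine, had 566 and 641 (0.18), and its second probe set was higher too (0.16). Vars (0.05), Gars (0.02), which also serves mitochondria, and Yars (0.01) were level. For Cars and Nars the readings of different probe sets lay apart by more than most genes show, and for Sars they did not.

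Wars, the tryptophan enzyme, which interferon-γ induces, had the widest spread between probe sets of any member (SD 0.18). Its brightest probe set had 297 in control and 254 in silncMDSC (-0.23), and the other 2 above the floor gave -0.08 and 0.13, so no direction can be given for it. Of 17 members with more than 1 probe set above the floor, 13 had all of them on the same side as the brightest. The exceptions were Wars, Farsa, Nars and Ears2. Aars, for alanine, had 641 and 695 (0.12) and 0.09 on its second probe set. A further probe set, annotated to both Aars and Exosc6, a subunit of the RNA exosome, had 589 and 385, 1.53-fold lower (-0.61). It cannot be credited to either gene alone and was not used. The probe set that reads Exosc6 by itself had 117.7 and 99.5 (-0.24), on the same side as the shared one, whereas those of Aars were not.

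**Figure D2:**
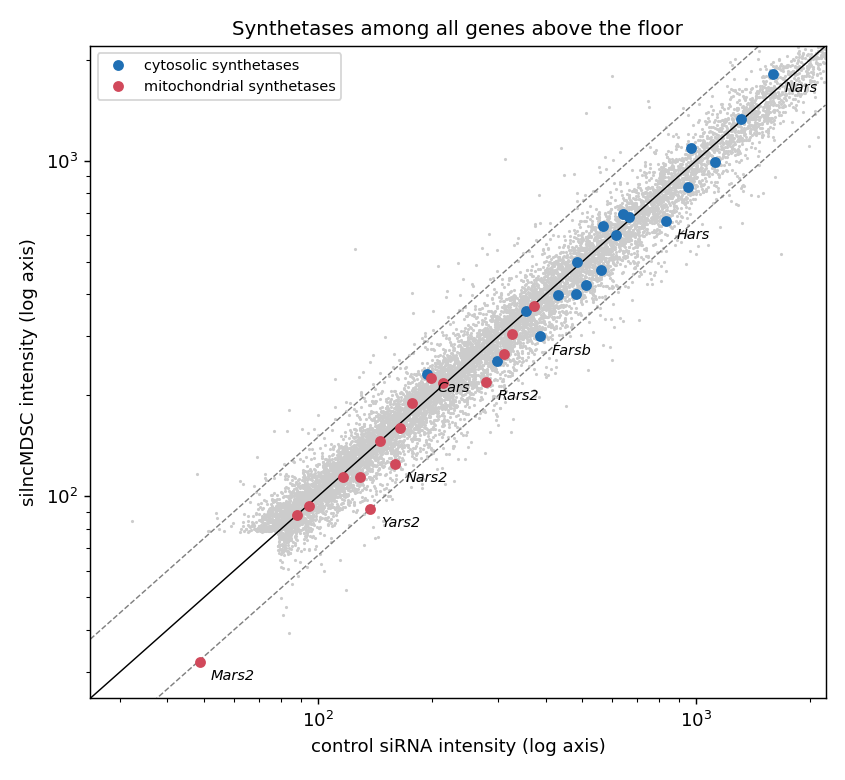
Control intensity (x axis, log scale) against silncMDSC intensity (y axis, log scale) of the synthetases over all genes above the floor (grey). The solid line marks equal values and the dashed lines 1.5-fold. Yars2 (137.6 and 91.4) sits on the lower dashed line and the other members above the floor lie inside it.

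Cytosolic and mitochondrial enzymes did not separate. The 19 cytosolic members had a median difference of -0.04 (0.002 with quantile normalization) and 10 of them (52.6%) were below 0. The mitochondrial ones had a median of -0.03 and 11 of 15 (73.3%) below 0. Among all genes the median was -0.002 and 50.7% were below 0, close to the cytosolic share. The cytosolic median minus the mitochondrial was -0.01. It ran from -0.01 to 0.05 over other ways of processing, so the order of the groups depended on the processing. The mitochondrial members were mostly dimmer, and a floor at the 75th percentile kept all 19 cytosolic but only 6 mitochondrial ones. The ranges overlapped almost throughout, from -0.37 to 0.26 for cytosolic and from -0.58 to 0.18 for mitochondrial members. Because members share their array and are not replicates of a condition, this contrast was described and not tested.

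The split of the cytosolic enzymes by catalytic fold gave little more. Class I enzymes, built on a Rossmann fold, had 5 of 10 below 0 and a median of -0.02. Class II enzymes, built on antiparallel sheets, had 5 of 9 below 0 and a median of -0.12. Eprs, which charges both glutamate and proline, was counted in class I only, so the split is not clean for it. Of the 4 cytosolic members past 1.2-fold, all of them lower, Farsb, Hars and Tars were class II and Rars class I. Among all genes, 50.7% were below 0 and 10.6% past 1.2-fold lower.

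The enzymes for 1 amino acid shared a side of 0 in 9 of 15 pairs. Of these 15 amino acids with both enzymes above the floor, both were lower for 7, both higher for 2 and opposite for 6, and the mitochondrial one was the lower of each pair in 7. Among the opposite pairs, those for valine, tyrosine and tryptophan each hold an enzyme that was within 0.05 of 0, so their sides are uncertain. The same holds among the pairs on a shared side for glutamate, proline, histidine, leucine, threonine and serine. Eprs enters as the partner of both Ears2 and Pars2, and Fars2 was paired with Farsa only, not with Farsb. With these pairings the widest gaps were for tyrosine (Yars2 minus Yars, -0.59), asparagine (Nars2 minus Nars, -0.54) and cysteine (Cars2 minus Cars, -0.43). Each had the mitochondrial enzyme lower. In the other direction histidine (Hars2 minus Hars) was at 0.28, threonine (Tars2 minus Tars) at 0.26 and phenylalanine (Fars2 minus Farsa) at 0.22. Set against Farsb (-0.37) in place of Farsa (-0.12), Fars2 (0.10) would have a wider gap than histidine or cysteine. The ranking thus depends on the subunit chosen. For arginine both enzymes were lower by a similar size, -0.27 and -0.34. The gaps for asparagine and cysteine rest on the brighter probe sets of Nars and Cars, whose second probe sets disagreed.

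**Figure D3:**
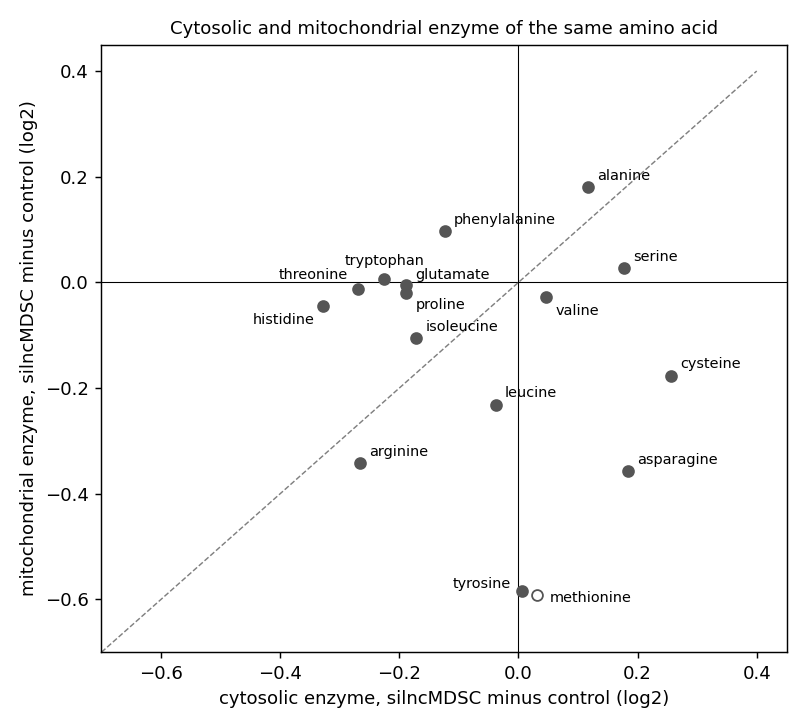
Each point is 1 amino acid, with the difference of its cytosolic enzyme (x axis, log2) and of its mitochondrial enzyme (y axis, log2), and the dashed line marks equal differences. Points scatter on both sides of the line, with tyrosine, asparagine and cysteine farthest below it, beside methionine (open), whose mitochondrial enzyme was below the floor.

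Of the 3 scaffold genes of the multisynthetase complex, 2 were past 1.2-fold, both lower, and 1 was level. Over all genes 10.6% were past 1.2-fold lower and 1.42% past 1.5-fold lower. Eef1e1, the smallest scaffold protein, read 1293 in control against 740 in silncMDSC, 1.75-fold lower (-0.80), on its 1 probe set. Aimp2, another scaffold protein, had 685 and 499 (-0.46), with -0.43 on its second probe set. Aimp1, the third, had 973 and 991 and was level (0.03). Of the 7 complex enzymes read, the lowest was Rars at -0.27.

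Genes that make tRNA ready for charging were lower as a list. Among the 25 tRNA maturation genes analysed, 14 (56%) were past 1.2-fold on the low side and 1 on the high side, 2 were past 1.5-fold, both low, 19 were below 0, and the median was -0.29. Over all genes 10.6% were past 1.2-fold lower, 1.42% past 1.5-fold lower and 50.7% below 0, and the median was -0.002. Wdr4, part of the enzyme that places a methyl group on tRNA guanine, had 227 and 139, 1.63-fold lower (-0.70), and its catalytic partner Mettl1 gave -0.28. Trmt6, part of the enzyme that methylates tRNA adenine, had 546 and 366 (-0.58), with -0.42 and -0.41 on its other probe sets, whereas its catalytic partner Trmt61a was level (0.03). Pop1, a subunit of RNase P, had the lowest value, 186 against 112 (-0.72), but 0.06 on its other probe set. The genes next in size, down to Xpot, were chosen for naming after their values were seen. The cytosine methylase Nsun2, which had 887 and 598, gave -0.57 and the RNase P subunit Pop7 -0.45, each on 1 probe set. The end-processing nuclease Elac2 (-0.48, and -0.44 and -0.31 for its further probe sets), the dihydrouridine synthase Dus1l (-0.40, with -0.39) and the tRNA exporter Xpot (-0.35, with -0.47 and -0.50) were lower on each probe set above the floor. Trmt10c, a subunit of mitochondrial RNase P (-0.44, with 0.14), and the RNase P subunit Rpp30 (-0.37, with 0.02) were not. At the other end were the RNase P subunit Rpp40 (0.30, but -0.64 on its other probe set), the mitochondrial RNase P subunit Hsd17b10 (0.18) and the splicing nuclease subunit Tsen34 (0.15). With the mean over all probe sets of a gene the median of the list was -0.17.

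Other parts of the translation machinery are read against all genes, of which 50.7% were below 0 and 10.6% past 1.2-fold lower. Mitochondrial translation factors had 6 of 8 below 0, 1 of them past 1.2-fold, and a median of -0.15. The elongation factor Gfm1 was lowest, with 381 and 286 (-0.41), followed by the elongation factor Tufm (-0.19) and the release factor Mtrf1l (-0.18), and Gfm2 (0.07) and Mtif3 (0.01) were the 2 above 0. Mitochondria lack a glutaminyl-tRNA synthetase of their own and amidate glutamate-charged tRNA with Qrsl1, Gatb and Gatc, while Mtfmt formylates the initiator tRNA. These genes had 2 of 4 below 0 and a median of -0.03, which turned to 0.01 without its farthest member, running from Mtfmt (-0.17) and Qrsl1 (-0.07) to Gatc (0.01) and Gatb (0.12). Cytosolic elongation factors had 1 of 4 below 0 and a median of 0.05. Eef1d was at -0.18, and Eef1a1 (0.05), Eef1b2 (0.05) and Eef2 (0.07) were level, but these 4 genes are very bright and differences at that end of the scale can be compressed.

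Proofreading and synthetase-like genes had 4 of 7 below 0 and 2 past 1.2-fold lower, against 50.7% and 10.6% of all genes. Their median was -0.09, which became -0.25 with the floor at the 75th percentile. Dtd1, which removes D-amino acids from tRNA, was lowest (-0.38, but 0.04 on its other probe set), then the kinase Pstk (-0.28), which acts in selenocysteine synthesis, and the editing protein Aarsd1 (-0.21). Sepsecs, the next enzyme after Pstk, was at 0.16, Prorsd1 at 0.08 and Tarsl2 at 0.06. RNA polymerase III, which transcribes tRNA genes, had 8 of 12 below 0, with 4 past 1.2-fold down and 2 past it up, against 10.6% and 6.96% of all genes, and a median of -0.11, which was -0.026 with the floor at the 75th percentile. Polr3e (-0.45, with 0.02 on its other probe set), Bdp1 (-0.33) and Polr3k (-0.32) were lowest. Its repressor Maf1 (0.27), Polr3gl (0.34) and Polr3c (0.15) were highest.

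**Figure D4:**
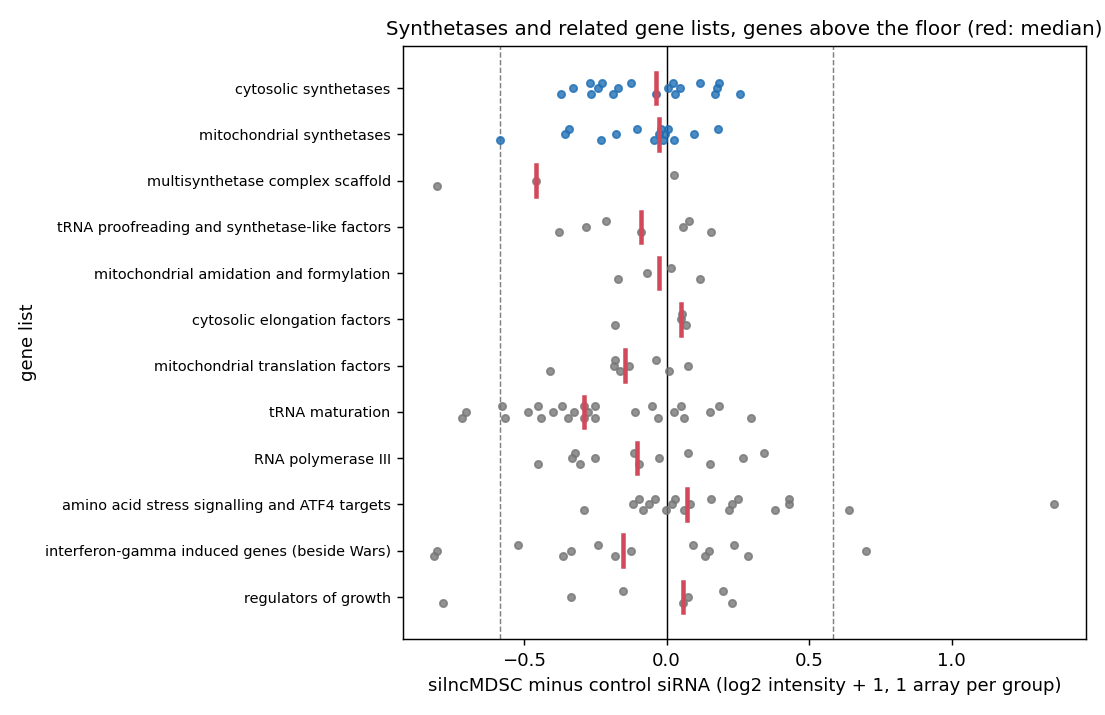
Points are genes above the floor in each list (y axis) placed by their difference (x axis, log2, silncMDSC minus control), with the median in red and dashed lines at 1.5-fold. The medians of cytosolic (-0.04) and mitochondrial (-0.03) synthetases lie near 0, while those of tRNA maturation (-0.29) and of the complex scaffold (-0.46) lie to the left.

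Atf4 and the genes of amino acid stress signalling, a list that holds ATF4 targets beside regulators, did not move as a unit. Atf4 had 2599 in control and 2491 in silncMDSC (-0.06). For amino acid stress signalling and ATF4 targets, 13 of the 20 genes analysed were above 0, with a median of 0.07. Past 1.5-fold, 2 were higher and 0 lower, where 0.948% of all genes were that far up and 1.42% that far down. At 1.2-fold 5 (25%) were higher and 1 (5%) was lower, against 6.96% and 10.6% of all genes. Cth, a cysteine-making enzyme, was 1.36 above control, but it was below the floor in control (32.2 and 84.2). It thus entered the count past 1.5-fold only through silncMDSC. The other gene in that count, the mTOR inhibitor Ddit4, was at 0.64. Chac1, which breaks down glutathione, followed with 209 and 282 (0.43, on 1 probe set), and the asparagine-making enzyme Asns was also at 0.43, with 0.47 on its second probe set. At the low end were the factor Atf5 (-0.29), the serine-making enzyme Phgdh (-0.12) and Ddit3, which encodes CHOP (-0.10, with 0.21 on its other probe set). The 12 synthetases known to respond to ATF4 had 7 above 0, 1 past 1.2-fold (Tars, lower) and a median of 0.01, beside -0.002 for all genes.

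Myc, a driver of growth and of tRNA and ribosome production, had 741 and 430, 1.72-fold lower (-0.78), and its partner Max gave -0.33. The other regulators of growth above the floor were nearer to control, with Rheb at -0.15, Rptor at 0.06, Mtor at 0.07, Castor1 at 0.20 and Sesn2 at 0.23, and a median of 0.06 over 7 genes that became -0.039 with the floor at the 75th percentile. For Wars, the list of genes that interferon-γ induces had 2 of 14 past 1.5-fold down and 1 past it up, against 1.42% and 0.948% of all genes, and a median of -0.15, which was -0.016 with the higher floor. Cxcl10 (-0.82), Iigp1 (-0.81) and Socs1 (-0.52) were lowest, and Ciita (0.70), Psmb9 (0.29) and Gbp2 (0.24) highest. The other probe sets of Ciita, which was also read among the dendritic cell markers, gave only 0.09 and 0.38. Irf1, a main mediator of this response, was at 0.15. Of the genes named here, Cxcl10 was below the floor in silncMDSC, so it entered the count past 1.5-fold down only through control. The other gene in that count, Iigp1, was above the floor on both arrays.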

How the data were processed

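Gene expression was measured on 2 Affymetrix Mouse Genome 430 2.0 arrays, 1 for control siRNA and 1 for silncMDSC, each from 6 µg of total RNA. The values deposited by the authors were linear probe set intensities from 1 to 13983. The submitters' processing notes name RMA, which usually gives log2 values, and how the linear scale was reached was not stated. The study's methods name limma, which cannot be fitted with 1 array per group, so values are described by size and the number of arrays limits the precision.

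Of 45037 probe sets (64 control probe sets aside), 34945 had 1 gene symbol in the platform annotation, 932 several and 9160 none. Genes were named from the first kind only, and Mars was found as Mars1 through its RefSeq synonym. Differences used a pseudocount of 1 and a floor at the median intensity. All members were named. For related lists the genes named are those at least 1.5-fold apart and the 3 farthest on each side. Further genes of a list were chosen after their values were seen. The members and lists were chosen with earlier results of these data known. Motifs were searched in RefSeq promoters of GRCm38.p6. The calculation was tested on simulated data. Alternatives were another centring, a loess trend (span 0.3), quantile normalization, another pseudocount, other floors, other choices of probe set, other folds and leaving out the farthest member. Python 3.11.15, pandas and statsmodels were used.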

Additional observations from a re-analysis of the deposited data

How the results depend on the processing

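No paired analysis was possible because each group holds 1 array, and for the same reason no replicate could be left out. A value was counted as moved where it shifted by more than 0.083, the median SD between probe sets of a gene. Of 297 values of single members under 9 settings, 290 shifted by less. The 7 others belonged to 6 members, Cars, Ears2, Lars2, Nars, Tars2 and Wars, where the probe set was changed. Much of this stability was fixed in advance. A change of floor cannot alter the value of a member, and centring shifts all members alike. The choice of probe set cannot alter a member that has only 1 probe set. The number of mitochondrial members at least 1.5-fold lower was 1 rather than 0 with a loess trend removed, with quantile normalization and with the mean of all probe sets (Yars2 each time), and 1 with no floor (Mars2). At the smaller folds it was 3 each time, and for cytosolic members 2 at the planned one and 4 at 1.2-fold, which was chosen after seeing the data. With a floor at the 75th percentile the median was -0.016 for interferon-γ genes, -0.039 for regulators of growth and -0.25 for proofreading genes. The scaffold median was -0.63 without its farthest member, and the tRNA maturation median -0.17 with the mean of all probe sets. The cytosolic minus mitochondrial median changed sign within a range from -0.01 to 0.05.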
